A study of Oncorhynchus mykiss with 28 samples.

Results

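Rainbow trout (Oncorhynchus mykiss) females differ in how many of their alevins, the larvae that still carry a yolk sac, are malformed when the yolk is used up, and the eggs of females at both ends of that range were compared here before fertilization. The members were females whose ovulation had been controlled and whose eggs gave at least 30% eyed embryos. They were chosen by the share of malformed alevins recorded at yolk-sac resorption (YSR) in the sample labels. A share of 10% or more placed a female in the many-malformed set (HI-2, HI-3, HI-4, PM-7 and PM-9), and a share under 5% placed it in the few-malformed set (HI-5, HI-8 to HI-11, PM-8 and PM-11 to PM-14). These sets hold 5 and 10 females, 15 of the 28 samples. The other 13 were 4 females between both limits, 5 with under 30% eyed embryos and 4 females of natural ovulation. No expression value entered the choice, though earlier results of these data were known when it was made.

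Egg mRNA abundance was measured on nylon cDNA arrays, with 1 array per female and radioactively labelled cDNA made from the pooled unfertilized eggs of that female. All females were of an autumn-spawning strain. Hormonal induction (HI) was an injection of a GnRH analog, and photoperiod manipulation (PM) was a period of constant light followed by short days, which advanced spawning. Females of natural ovulation (N) received neither treatment. The labels date the HI eggs to 2004 and the N and PM eggs to 2003, so year and ovulation group cannot be told apart, and the comparison was made with ovulation group as a covariate. The alevins that were scored grew from other eggs of the same female, fertilized with pooled sperm, so each array stands for a female and not for a malformed embryo. Signals are relative to the median clone of each array, which has a log2 signal of 0.

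An egg is laid down with mRNAs made by the mother during oogenesis, and the early embryo lives on them until its own genome is transcribed. Among these maternal mRNAs are those for signalling proteins of the embryonic axes and organs, such as bone morphogenetic proteins and their relatives, for transcription factors and co-repressors, and for the ribosomal and mitochondrial proteins that the cleaving embryo uses. Apolipoproteins carry lipid in plasma, and the largest of them, APOB, is related to vitellogenin, the yolk precursor that the liver supplies to the growing oocyte. A malformation seen at YSR can have its origin at any stage from oogenesis up to YSR.

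The many-malformed females had on average fewer eyed embryos than the few-malformed females. The malformed shares were 17.4% for HI-2, 55.6% for HI-3, 40.9% for HI-4, 14.1% for PM-7 and 14.3% for PM-9, against 0 to 4.7% (median 2.35%) in the few-malformed set. The nearest shares inside the limits were thus 4.7% for PM-13 and 14.1% for PM-7, and the females left out between them had 5.3% for PM-6, 5.6% for PM-5, 7.1% for PM-10 and 8.1% for HI-7. The labels do not say of what the malformed percentage is taken. If it is of the survivors at YSR, malformed alevins as a share of all eggs were 4.15 to 35.7% in the many-malformed set and 0 to 4.58% in the other, so on that scale HI-2, with 4.15%, lay below PM-13, with 4.58%. N females, whose eggs are the reference for undisturbed ovulation, had 1.2 to 2.7% malformed alevins.

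Eyed embryos, the stage at which the pigmented eye can be seen through the shell, were 47, 89, 88, 62 and 80% of the eggs in HI-2, HI-3, HI-4, PM-7 and PM-9, and 77 to 99% (median 92%) in the few-malformed females. The sets overlapped, and HI-2 was the lowest of the 15. The mean was 73.2 ± 18.2% (SD, n = 5) against 91.8 ± 6.68% (SD, n = 10), which differ by -18.6 points (exact permutation test within ovulation groups, two-sided, p = 0.0136, and 0.0204 after Benjamini-Hochberg adjustment over 3 measures). The minimum of 30% eyed embryos held for both sets, and the adjusted p of this exact permutation test was 0.0612 without HI-2 and 0.0714 without PM-7. Survivors at YSR were computed from the normal and malformed shares under the same reading of the labels, so they use what chose the sets and are given with no test. Their test still counted in the adjustment over 3 measures and ranked ahead of that of eyed embryos. The adjusted p for eyed embryos thus depends on tests that are not given and is to be read with this limit. Survivors were 48.6 ± 15.99% (SD, n = 5) of the eggs in the many-malformed set and 82.05 ± 21.9% (SD, n = 10) in the other. The loss between the eyed stage and YSR, which also rests on them, was 18.3 to 28.8 points (median 24.8) in the many-malformed set. In the few-malformed set it was -8.48 to 56.2 points (median 2.29), and no test is given. The sets overlapped through HI-5 and PM-8, which had losses of 35.9 and 56.2 points. The negative loss belongs to PM-13, whose label gives 92.9% normal alevins but 89% eyed embryos, and the survivors computed for N-4 came to 100.2% of its eggs, so these percentages are not exact shares of the same eggs.

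**Figure D1:**
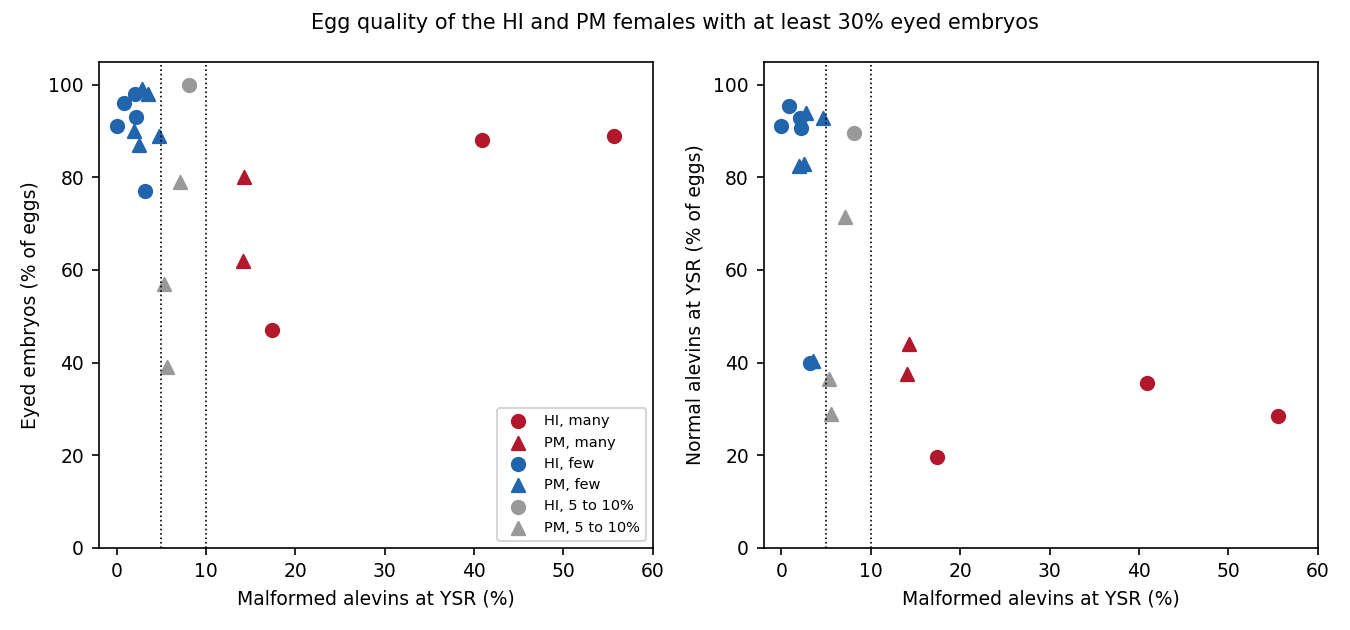
Malformed alevins at YSR (x axis, percent) against eyed embryos (left, percent of eggs) and normal alevins (right, percent of eggs) for the 19 HI and PM females with at least 30% eyed embryos, circles for HI and triangles for PM, with dotted lines at the limits of 5 and 10%. All 5 many-malformed females lie at or below 43.9% normal alevins, and HI-5 and PM-8 of the few-malformed set lie beside them, at 39.8 and 40.3%.

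Normal alevins were also fewer on average in the many-malformed set, with some overlap, a difference that the malformed share enters and that is given with no test. Normal alevins made up 19.7 to 43.9% of the eggs in the many-malformed set and 39.8 to 95.4% (median 90.8%) in the few-malformed set. HI-5 and PM-8 were the exceptions, with 39.8 and 40.3% normal alevins but only 3.2 and 3.5% malformed, and a loss of 35.9 and 56.2 points between the eyed stage and YSR. The comparison of the sets across clones was also made with these 2 females as the whole few-malformed set and without them.

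Each of the 15 arrays measured 8229 to 8655 of the 9023 clones, and the 8192 clones with at least 4 values in the many-malformed and 8 in the few-malformed set were tested. The arrays did not group by malformation. Correlations of log2 signal between arrays ran from 0.937 to 0.976, and their median was 0.947 over the 10 pairs of many-malformed females, 0.953 over the 45 pairs of few-malformed females and 0.952 over the 50 mixed pairs. The most similar array was of the same malformation set for 8 of 15 arrays, and of the same ovulation group for 12 of 15. HI-4, PM-13 and PM-14 stood apart from the rest, since they had 15.9, 18.5 and 18.6 on the first principal component (19.1% of the variance) while the other 12 arrays lay between -11.7 and 2.67. HI-4 is a many-malformed female while PM-13 and PM-14 are few-malformed females, so results that rest on them are given without them as well. The spread of an array, as its interquartile range on the log2 scale, was 1.54 ± 0.084 (SD, n = 5) against 1.499 ± 0.077 (SD, n = 10; exact permutation test, adjusted p = 0.529), and the number of clones above 0 was 8463 ± 96.5 against 8417 ± 163.8 (exact permutation test, adjusted p = 0.529).

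No clone passed the test between eggs giving many and eggs giving few malformed alevins. With limma and Benjamini-Hochberg adjustment over 8192 clones, 0 were called at an adjusted p under 0.05 (0% of those tested), and the lowest adjusted p was 1 after rounding. Before adjustment 277 clones (3.38%) lay under 0.05, 97 of them with a higher and 180 with a lower mean in the many-malformed set, where 410 would be expected of 8192 tests with no difference. The count of calls was also 0 under each alternative normalization, filter, variance model, covariate and choice of females that was run and after leaving out each array. The lowest adjusted p-values of limma among these fits were 0.0545 without PM-9, a value that the clone tcad0004.j.06 had, and 0.147 for the slope of signal on the malformed percentage over 19 females.

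In the fit with 1 difference common to HI and PM, differences between the sets were small for most clones. The log2 difference, many minus few, had a median of -0.01 over all clones and a median size of 0.08, with a range from -0.65 to 0.70. It was over 0.5 in size for 19 clones and over 1, a 2-fold change, for 0. The 95% confidence interval had a median half-width of 0.26 and lay wholly between -1 and 1 for 8174 clones (99.8%) and between -0.5 and 0.5 for 7202 clones (87.9%).

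The clones that the study named were described next, by the role of the protein. The lists held 57 clones, 26 from a comparison of ovulation groups and 31 from a search for a link with the share of normal alevins. The second choice used these same arrays, and the many-malformed females are also low in normal alevins. Neither the direction of those 31 nor their share under 0.05 before adjustment is thus independent evidence. Of the 57, 56 could be tested and 0 were called, as among all clones (0%). Before adjustment 6 of 56 (10.7%) lay under 0.05, beside 3.38% of all clones. The mean was higher in the many-malformed set for 19 and lower for 37, with a median difference of -0.05 beside -0.01 over all clones. For none of the 56 did the sets separate fully. Among the 31 clones linked to quality, 7 were higher and 24 lower (median -0.10, 5 under 0.05 before adjustment), and among the 25 tested clones from the ovulation comparison 12 were higher and 13 lower (median -0.02, 1 under 0.05).

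Among secreted and plasma proteins, 1 of 5 clones had the higher mean in the many-malformed set and 4 the lower (median difference -0.14). Of all 8192 clones, 4401 were lower. Under 0.05 before adjustment lay 3 of the 5, beside 3.38% of all clones. The 4 lower clones, APOB, LAMB2, TF and VWF, are from the list linked to quality, which was chosen on these same arrays. APOC1, an apolipoprotein of lipid-carrying particles that in mammals restrains lipoprotein uptake, had log2 signals of 0.64 in HI-2, 0.38 in HI-3, -0.47 in HI-4, 0.27 in PM-7 and -1.001 in PM-9. The few-malformed females lay between -0.98 and 0.06 (median -0.72). HI-2, HI-3 and PM-7 were thus above every few-malformed female, while HI-4 lay among them and PM-9 below all of them. The mean difference for APOC1 was 0.58 on the log2 scale (95% interval 0.18 to 0.97, limma, adjusted p = 1), with 0.66 within HI and 0.47 within PM. It was 0.41 without PM-7, 0.80 without PM-9 and 0.30 with the percentage of eyed embryos as a further covariate. N females had APOC1 signals of -1.58 to -0.97, and the 4 females with 5 to 10% malformed alevins had -1.34 to -0.12.

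APOB, the large structural apolipoprotein of very low density lipoproteins, pointed the other way. Its log2 signals were 0.36, -0.31, 0.07, -0.42 and -0.42 in HI-2, HI-3, HI-4, PM-7 and PM-9, and -0.18 to 0.78 (median 0.17) in few-malformed females. PM-7, PM-9 and HI-3 were below every few-malformed female, and HI-2 and HI-4 lay within the range of that set. The APOB difference was -0.37 (95% interval -0.69 to -0.05, limma, adjusted p = 1), made up of -0.08 within HI and -0.76 within PM. It was -0.15 when HI-5 and PM-8 alone stood for the few-malformed set. The 3 PM females with 5 to 10% malformed alevins, which did not enter the test, had -0.60, -0.36 and -0.24. The HI female in that range, HI-7, had 0.05, inside the range of the few-malformed set.

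LAMB2, the laminin beta-2 chain of basement membranes, had -1.60, -1.83, -1.68, -2.04 and -1.85 in the many-malformed females HI-2, HI-3, HI-4, PM-7 and PM-9, and -1.90 to -1.18 (median -1.57) in the others, a difference of -0.27 (95% interval -0.54 to -0.01). The sets overlapped, since PM-13 of the few-malformed set had a lower signal than every many-malformed female but PM-7. Serotransferrin (TF), the iron carrier of plasma, and the clotting protein VWF differed by -0.14 and -0.13, with intervals that included 0. The VWF difference was -0.26 without PM-7, -0.08 without HI-4 or HI-8 and 0.13 with HI-5 and PM-8 alone as the few-malformed set. Of the markers listed for a check of tissue, only TF and APOB, listed for liver and plasma, were in the study's lists. None of those for eggs or follicle cells were in these lists. The clone of cyclin A2, a listed egg marker with which the paper normalized real-time PCR, is outside them and was not examined. The tissue label was thus not checked against markers.

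Kinases, phosphatases and proteins of protein turnover were lower on average in the many-malformed set for 5 of 5 clones (median -0.11), beside 4401 of all 8192. Of the 5, 2 lay under 0.05 before adjustment, beside 3.38% of all clones. Both, DUSP24 and NEK1, are from the list linked to quality. DUSP24, a relative of the dual-specificity phosphatases whose human form lacks catalytic activity, had log2 signals of -2.20 in HI-2, -2.36 in HI-3, -2.09 in HI-4, -2.46 in PM-7 and -2.18 in PM-9. In the few-malformed females it ran from -2.16 in HI-8 to -1.22 in PM-13 (median -1.89). All many-malformed females except HI-4 lay below every few-malformed female, and HI-4 lay below all of them but HI-8. The DUSP24 difference of -0.45 (95% interval -0.73 to -0.17, limma, adjusted p = 1) was the largest in size among the 31 clones linked to quality, with -0.30 within HI and -0.65 within PM. It was -0.27 when HI-5 and PM-8 alone were the few-malformed set, and -0.38 without HI-4, PM-13 and PM-14. Both females of the few-malformed set with the highest DUSP24 signal, PM-13 and PM-14, are among the 3 arrays that stood apart. N females spanned -2.08 to -1.40.

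NEK1, a protein kinase of cilia and of the DNA damage response in mammals, had 0.04, 0.05, 0.21, 0.04 and -0.11 in HI-2, HI-3, HI-4, PM-7 and PM-9, against -0.07 to 0.70 (median 0.36) in the few-malformed set. The NEK1 difference was -0.26 (95% interval -0.51 to -0.004), and HI-5, HI-8, PM-8 and PM-12 of the few-malformed set lay inside the range of the many-malformed one. HI-5 and PM-8 are the females with few normal alevins.

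**Figure D2:**
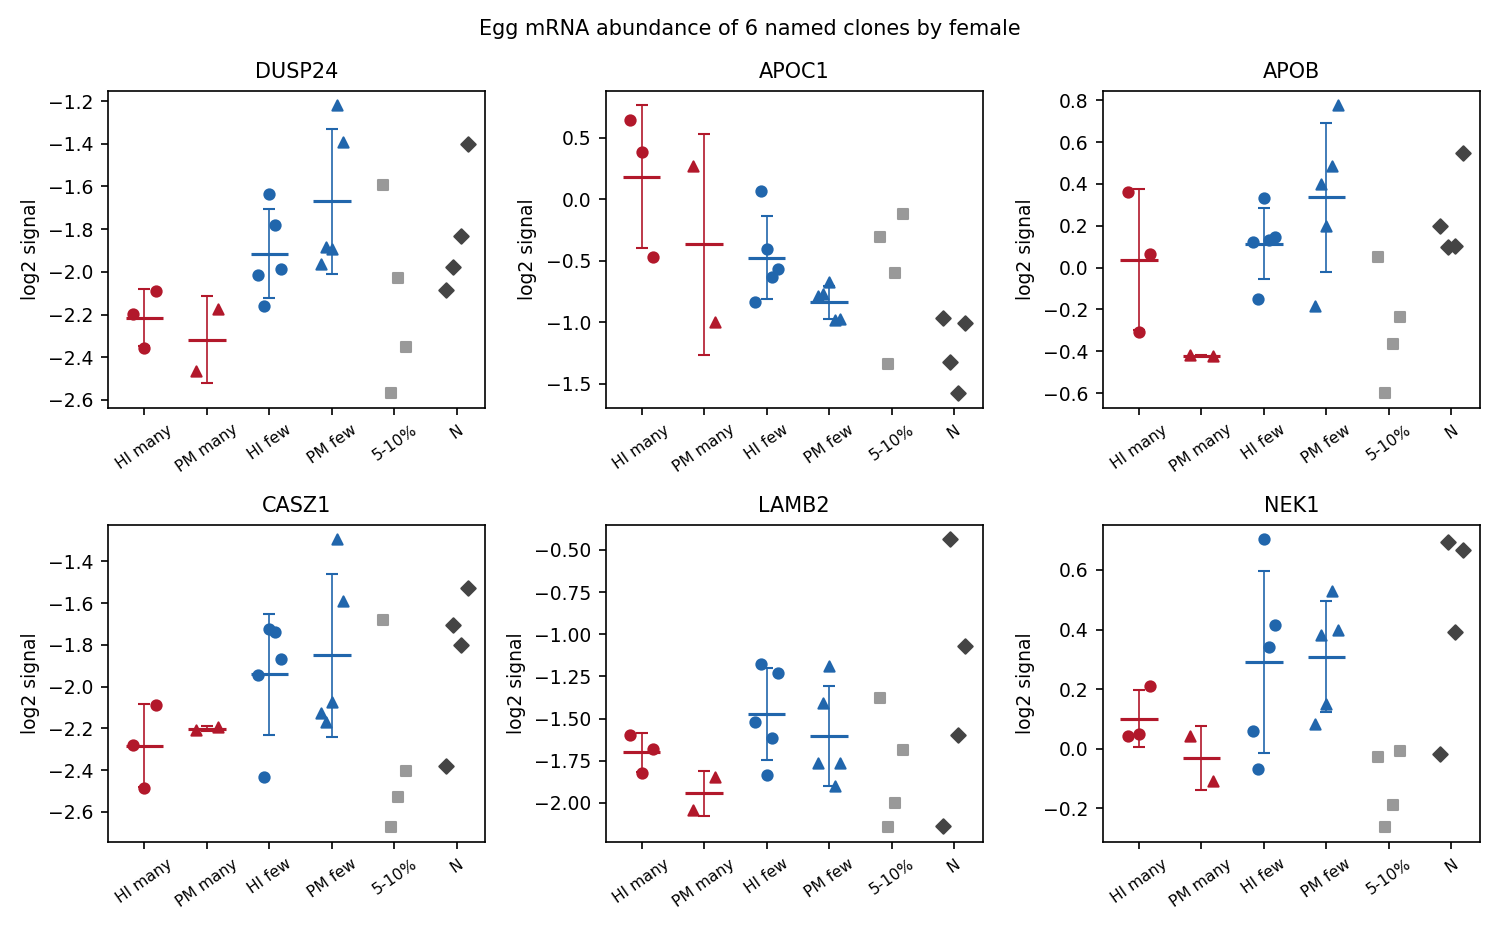
Log2 signal (y axis) of 6 named clones in each female, with the 4 groups of the comparison, the 4 females with 5 to 10% malformed alevins and the 4 N females on the x axis. Horizontal bars are means and error bars are 1 SD of 3 HI and 2 PM many-malformed and 5 HI and 5 PM few-malformed females. In every panel at least 1 many-malformed female lies within the range of the few-malformed set.

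Regulators of transcription had the lower mean in the many-malformed set for 6 of 8 clones (median -0.09), beside 4401 of all 8192. All 6 are from the list linked to quality, which was chosen on these same arrays, so their direction is not independent evidence. CASZ1, a zinc finger transcription factor, had -2.28, -2.49, -2.09, -2.21 and -2.19 in HI-2, HI-3, HI-4, PM-7 and PM-9, and -2.43 to -1.29 (median -1.91) in the few-malformed females. Its mean difference was alike in both ovulation groups, -0.34 within HI and -0.35 within PM, and -0.35 together (95% interval -0.65 to -0.04, limma, adjusted p = 1). The PM few-malformed females ran from -2.17 to -1.29. Their median of -2.07 lay closer to PM-7 and PM-9 than their mean of -1.85. HI-8, a few-malformed female, had a lower CASZ1 signal than every many-malformed female but HI-3. The 3 PM females with 5 to 10% malformed alevins, at -2.68, -2.53 and -2.41, lay below all PM females of both sets. The HI female in that range, HI-7, had -1.68 and lay above all HI females of both sets. The zinc finger protein ZNF16 differed by -0.14, the Groucho-type co-repressor TLE1 by -0.10, the chromatin-associated co-regulator HCFC1 by -0.10 and GMCL1, related to the germ cell-less protein of flies, by 0.14. The intervals of these 4 included 0. TLE1 was at -0.04 without HI-2, HCFC1 at -0.008 without HI-4 and -0.21 without PM-7, and GMCL1 at 0.05 without HI-2, -0.06 with eyed embryos as a covariate and -0.05 with HI-5 and PM-8 alone as the few-malformed set.

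Growth factor signalling, which shapes the embryonic axis and organs, was measured by 3 clones. BMP7, a bone morphogenetic protein, had log2 signals of -0.49, -0.46, -0.55, -0.20 and -0.17 in HI-2, HI-3, HI-4, PM-7 and PM-9, and -0.63 to -0.01 (median -0.42) in the few-malformed set. All many-malformed females lay inside the range of the few-malformed set, and the BMP7 difference was 0.01 (95% interval -0.23 to 0.24), with -0.15 within HI and 0.21 within PM and a sign that changed among the alternatives. The TGF-beta receptor TGFBR2 had a difference of -0.21 (95% interval -0.56 to 0.15), which was -0.34 without HI-3, -0.06 without HI-4 and 0.08 when HI-5 and PM-8 alone were the few-malformed set. The receptor PDGFRA, for platelet-derived growth factor, had 0.02 (95% interval -0.17 to 0.22).

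Both ribosomal protein clones had means at or above those of the few-malformed set. RPL24, a protein of the large subunit mutated in the mouse strain Belly spot and tail with its skeletal and coat defects, had 0.13, 0.70, 0.60, 0.47 and -0.85 in HI-2, HI-3, HI-4, PM-7 and PM-9, against -0.91 to 0.48 (median -0.07). HI-3 and HI-4, the females with the highest malformed shares, had the highest RPL24 signals of the 15, and PM-9 the second lowest. HI-1, left out with 3% eyed embryos and 0% malformed alevins, had 0.80. In the few-malformed set the RPL24 mean was 0.13 in HI and -0.44 in PM females. The RPL24 difference of 0.30 (95% interval -0.09 to 0.70) did not pass, and was 0.11 without PM-7 and 0.52 without PM-9. RL10, of the same subunit, differed by 0.00094 (95% interval -0.34 to 0.35), a value that was -0.12 with the interquartile range as a covariate.

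PHB2, a prohibitin of the inner mitochondrial membrane and a member of the list linked to quality, was close to level between the sets. It had -0.04 in HI-2, -0.09 in HI-3, -0.03 in HI-4, -0.05 in PM-7 and -0.30 in PM-9, against -0.42 to 0.10 (median -0.11) in the few-malformed females. All many-malformed females lay inside the range of the few-malformed set. The PHB2 difference was 0.05 (95% interval -0.16 to 0.27, limma, adjusted p = 1), 0.11 within HI and -0.02 within PM. The few-malformed female with the highest PHB2 signal was HI-5, at 0.10, and PM-8 was at -0.06. Leaving out 1 array gave PHB2 differences of 0.01 (without HI-10) to 0.11 (without PM-9). With HI-5 and PM-8 alone as the few-malformed set the difference was -0.14, and with eyed embryos as a covariate it was -0.03. The PM females with under 30% eyed embryos, which are outside the comparison, had PHB2 signals of -0.007 to 0.32. HI-1, the HI female with under 30% eyed embryos, had -0.05. In the paper, PHB2 mRNA measured by real-time PCR correlated negatively with the share of normal alevins, which is not the measure that split these sets. The paper reports the same direction from its arrays. It used all females of its array study, with N females and those with under 30% eyed embryos among them, and not only the females compared here.

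Of 3 lipid enzymes and binding proteins, 1 had the higher mean in the many-malformed set and 2 the lower (median -0.05). The sterol-binding protein OSBPL5 had a difference of 0.31 (95% interval -0.12 to 0.73), similar within HI (0.25) and within PM (0.39), and was 0.50 without PM-9 and 0.08 without PM-7. AGM1, which makes the precursor of N-acetylglucosamine for glycoproteins, had -0.18 (95% interval -0.44 to 0.07), and -0.08 without HI-4. Over the list of glycosylation and vesicle traffic, 3 of 5 clones were higher and 2 lower (median 0.01), and over RNA binding and processing 2 of 4 were higher (median 0.01). None of these 3 lists held a clone under 0.05 before adjustment.

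**Figure D3:**
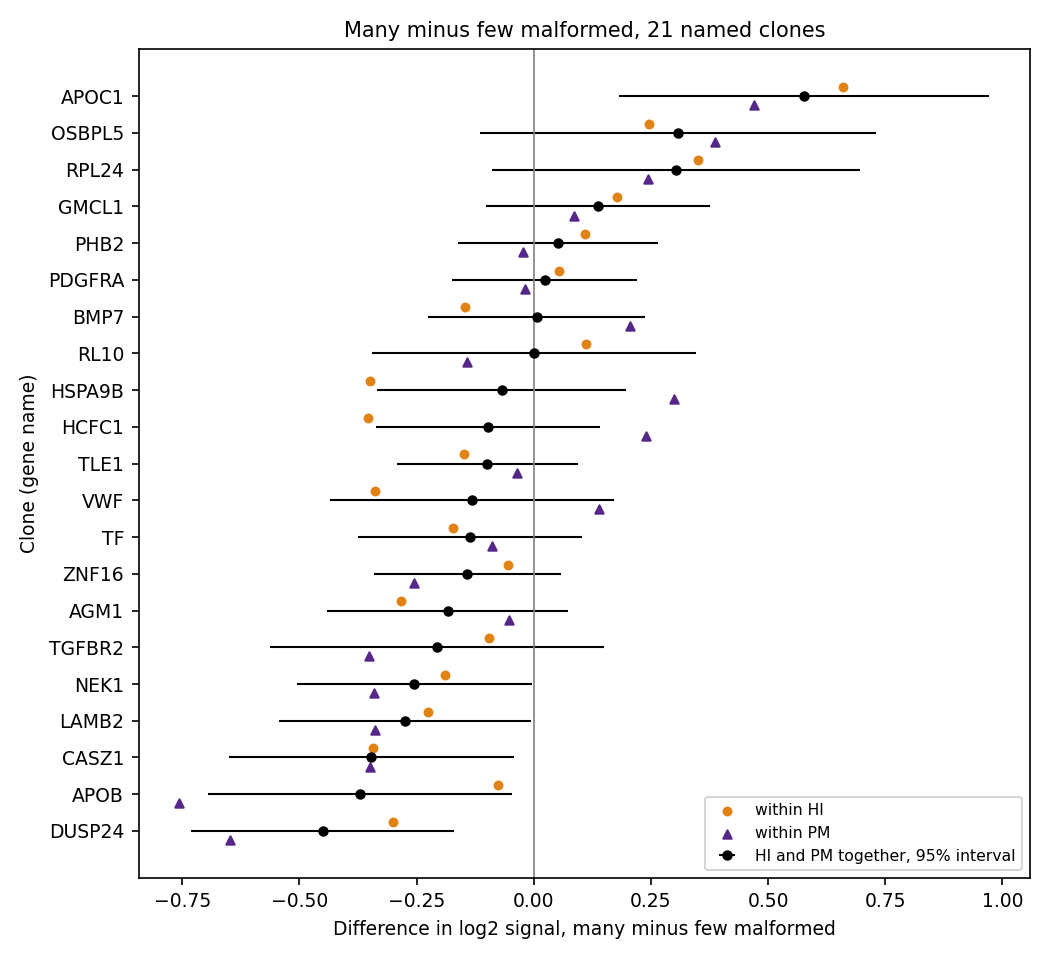
Difference in log2 signal between many- and few-malformed females (x axis) for 21 named clones (y axis), with black points and 95% confidence intervals for HI and PM together, orange circles for HI alone and purple triangles for PM alone. The intervals of APOC1, NEK1, LAMB2, CASZ1, APOB and DUSP24 leave out 0. Of these, LAMB2, CASZ1 and DUSP24 are dim, with a mean log2 signal under -1, the limit of an alternative filter. HSPA9B, HCFC1, VWF and BMP7 are among the clones with the HI and PM points on opposite sides of 0.

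Clones without a gene name held the largest differences. The 10 clones with the lowest p in each direction were taken as a description of what the comparison ranked highest, and none of the 20 was called. The clone 1RT4G4 ranked first among those with a higher mean, with 1.55, 1.69, 1.95, 1.76 and 0.93 in HI-2, HI-3, HI-4, PM-7 and PM-9 and 0.15 to 1.36 (median 0.92) in the few-malformed set. All many-malformed females but PM-9 lay above every few-malformed female, and the 1RT4G4 difference of 0.62 (95% interval 0.31 to 0.94) was alike within HI (0.61) and within PM (0.64). It was 1.05 with HI-5 and PM-8 alone as the few-malformed set. The N females, with few malformed alevins, had 1.04 to 2.22. The clone tcad0004.j.06 followed the same pattern, at 2.84, 3.03, 2.89 and 3.03 in HI-2, HI-3, HI-4 and PM-7 but 1.62 in PM-9, against 1.52 to 2.35 in the few-malformed females (difference 0.70, 95% interval 0.32 to 1.08, and 0.94 without PM-9). The 4 females with 5 to 10% malformed alevins had tcad0004.j.06 signals of 2.45 to 3.25, above every few-malformed female, and N females had 1.42 to 2.86.

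Only 1 clone (0.0122% of those tested) had all many-malformed females above all few-malformed females, and 6 (0.0732%) had them all below. The clone above was 1RT39D23_B_B12, singled out after its values were seen. It had 1.10, 1.24, 1.42, 1.06 and 1.06 in HI-2, HI-3, HI-4, PM-7 and PM-9 and 0.52 to 1.00 (median 0.85) in the few-malformed set, a difference of 0.36 (95% interval 0.15 to 0.58, limma, adjusted p = 1). The gap between both sets for 1RT39D23_B_B12, from 1.00 in HI-5 to 1.06 in PM-7, was small beside the spread within each. Among females outside the comparison it was 0.96 to 1.12 at 5 to 10% malformed alevins and 0.28 to 1.60 in N eggs, so N females were found on both sides of the gap.

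Of the 6 clones in which all many-malformed females were below, tcad0008.c.24 and tcay0013.f.14 had the lowest p. The clone tcad0008.c.24 had 1.16, 1.24, 1.08, 1.21 and 0.11 in HI-2, HI-3, HI-4, PM-7 and PM-9, and 1.28 to 1.91 (median 1.36) in the few-malformed set. All many-malformed females but PM-9 lay just under the few-malformed range, and PM-9 lay far below it. N females, at 0.91 to 1.43, were mostly on the side of the many-malformed set. The tcad0008.c.24 difference of -0.56 (95% interval -0.85 to -0.28) was -0.38 without PM-9. The clone tcay0013.f.14 had -0.87, -0.87, -0.68, -0.94 and -1.17 in HI-2, HI-3, HI-4, PM-7 and PM-9, against -0.66 to -0.31 (median -0.54), a difference of -0.39 (95% interval -0.60 to -0.18). For tcay0013.f.14 the 4 females with 5 to 10% malformed alevins, at -1.03 to -0.75, lay on the side of the many-malformed set, and N females at -0.70 to -0.16 lay mostly on the other. Both clones are without a name here, and whether any of these separations would be seen in other females was not tested.

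**Figure D4:**
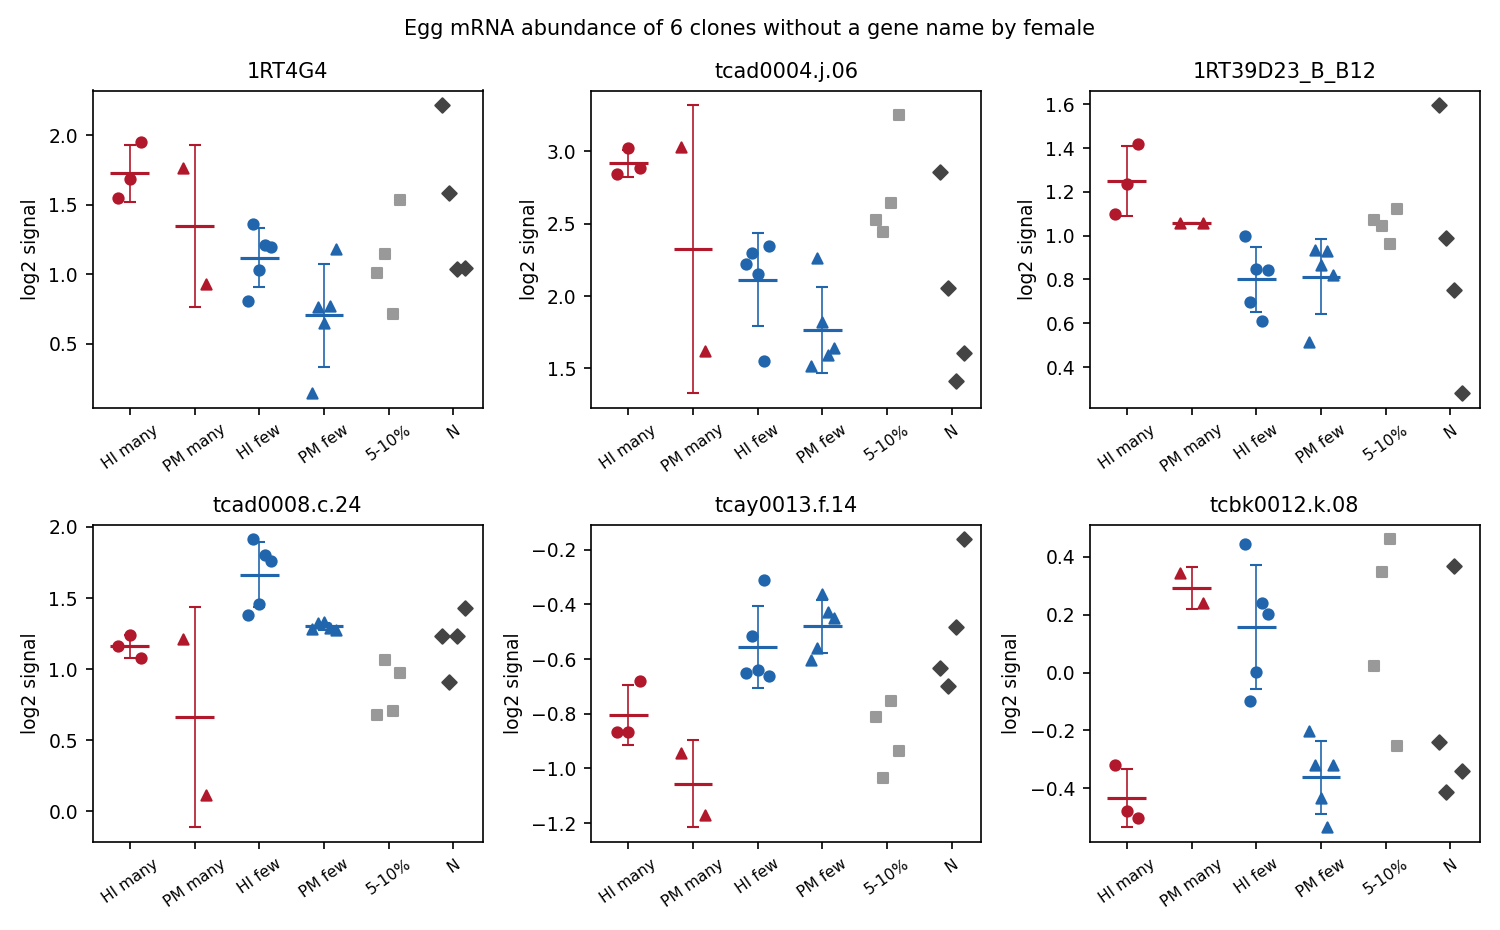
Log2 signal (y axis) of 6 clones without a gene name in each female, with the groups of the comparison, the females with 5 to 10% malformed alevins and the N females on the x axis, and means with 1 SD as bars. For 1RT39D23_B_B12 all 5 many-malformed females are at 1.06 or above and all 10 few-malformed females at 1.00 or below, and for tcbk0012.k.08 the HI and PM females are ordered in opposite ways.

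The comparison was also made within each ovulation group, with 3 against 5 HI females and 2 against 5 PM females. Within HI, 0 of 8192 clones (0%) were called by limma, the lowest adjusted p was 0.999, and 348 (4.25%) lay under 0.05 before adjustment. Within PM, 0 clones (0%) were called, the lowest adjusted p was 0.344, a value shared by 23 clones, and 715 (8.73%) lay under 0.05 before adjustment. Without PM-7 the limma fit called 21 clones within PM and without PM-9 it called 5, and in both fits a single female, PM-9 or PM-7, stood for the many-malformed PM eggs and was assumed to vary like the other groups. All many-malformed females were above all few-malformed females within HI and again within PM for 1 clone (0.0122%), and below in both for 10 clones (0.122%).

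Differences within HI were more often opposite to those within PM than alike. The sign was the same in 42.7% of clones, and the correlation of both differences across the 8192 clones, which share their arrays and are not independent, was r = -0.21 (Spearman's coefficient = -0.21). It was r = -0.04 without HI-4, -0.09 without PM-9 and -0.13 without HI-4, PM-13 and PM-14 together, and between -0.292 and -0.0396 over all fits that left out 1 array. Clones in which the many-malformed females were all above in HI and all below in PM numbered 7 (0.0854%), and those with the opposite pattern numbered 29 (0.354%).

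The test of the difference between the PM and HI contrasts called 0 clones (0%) with limma, where 777 (9.48%) lay under 0.05 before adjustment. It called 12 clones without PM-7, 1 without PM-9 and 1 without HI-8. The lowest adjusted p was 0.0654, for tcbk0012.k.08, a clone without a name that is given here because it had that value. Within HI its signals were -0.32, -0.48 and -0.50 in HI-2, HI-3 and HI-4 and -0.10 to 0.45 in the few-malformed females, and within PM they were 0.34 and 0.24 in PM-7 and PM-9 and -0.54 to -0.20 in the few-malformed females. The sets of tcbk0012.k.08 were thus fully separated in both ovulation groups, in opposite directions, by -0.59 within HI and 0.65 within PM. The difference of 1.25 between them (95% interval 0.81 to 1.68) was 1.17 without HI-4, PM-13 and PM-14, with an adjusted p of 0.509 in limma, and it passed with the interquartile range as a covariate (adjusted p = 0.0199), a fit in which it was the 1 clone called, and without HI-8 (adjusted p = 0.0344).

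Among the named clones, HCFC1 and the mitochondrial chaperone HSPA9B had the lowest p for the difference between contrasts. HCFC1 had -0.05, -0.13 and -0.38 in HI-2, HI-3 and HI-4, all below the HI few-malformed females at 0.05 to 0.29, while PM-7 and PM-9 had 0.23 and 0.01 beside -0.29 to 0.01 in theirs. Its difference was -0.35 within HI and 0.24 within PM, and these differed by 0.59 (95% interval 0.19 to 1.00, limma, adjusted p = 0.420). HSPA9B had 1.30, 1.55 and 1.39 in HI-2, HI-3 and HI-4 against 1.44 to 2.01, and 2.12 and 2.28 in PM-7 and PM-9 against 1.71 to 2.08. The HSPA9B differences of -0.35 within HI and 0.30 within PM gave 0.65 between them (95% interval 0.19 to 1.10, adjusted p = 0.463), and -0.07 for both ovulation groups in 1 fit. With 3 and 2 many-malformed females, the number of arrays limits the precision of each of these contrasts.

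**Figure D5:**
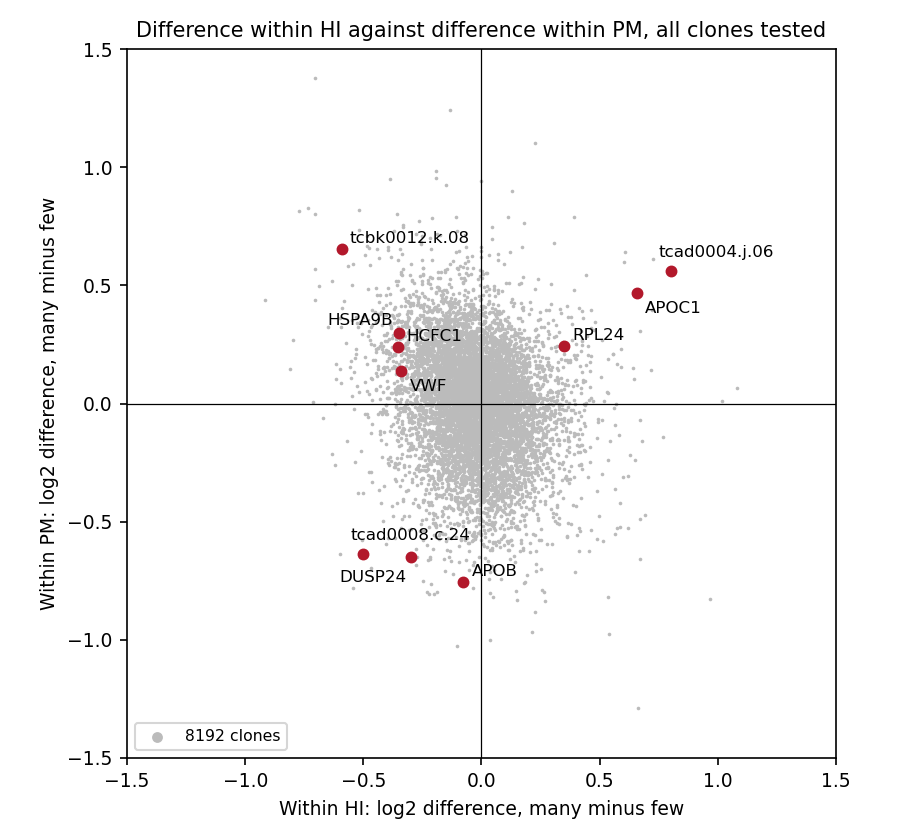
Difference in log2 signal, many minus few malformed, within HI (x axis) and within PM (y axis) for the 8192 clones tested (grey), with 10 clones of the text in red. APOC1, RPL24 and tcad0004.j.06 are positive on both axes, DUSP24, APOB and tcad0008.c.24 negative on both, and HCFC1, HSPA9B, VWF and tcbk0012.k.08 are negative within HI and positive within PM.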

How the data were processed

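The authors deposited linear intensities for each female's array. They had excluded spots on which a vector probe showed too little DNA, adjusted the rest for spotted DNA and scaled every array to its median. The treatment of duplicate spots is unknown here. Of 9216 rows, 193 that are not clones were left out. Values of 0 (6.55% of clone values) were treated as missing, and log2 signal was used with no offset. The 15 females were taken from the sample labels, and malformation sets were compared with limma 3.58.1 in R 4.3.3 (ovulation group as covariate, Benjamini-Hochberg adjustment). One fit of 4 group means gave the contrasts within HI and PM and their difference. Eyed embryos and array measures were tested by exact permutation of the set labels within ovulation groups (1176 arrangements). The planned tests of survivors and loss are not given, since both use the malformed share, but they count in the adjustment over 3 measures. The limma scripts were tested on simulated data. Figures were drawn with matplotlib 3.10.9. Alternatives were other normalizations, filters, offsets, variance models, weights, covariates, sets of females and leaving out each array. Clones were named by the rule of the study's own lists, plus the 10 lowest p in each direction and clones singled out in the text. Gene names are those the study gives. The members, lists and clones were chosen with earlier results of these data known. Some named clones are not reported here.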

Additional observations from a re-analysis of the deposited data

Results flagged for a closer look

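In groups of 4 to 10 females, single samples that lay far from the others were searched for in 126 groups of values, of which chance would mark about 6, and 7 were found. HI-5 had 39.8% normal alevins and 41.1% survivors at YSR, while the next HI females of the few-malformed set had 90.6 and 91.0%. PM-8 had 40.3% normal alevins and 41.8% survivors, beside 82.5 and 84.2% for the next PM females of that set. N-2 had 2.7% malformed alevins, beside 1.4% for the next N female. The signal of tcad0004.j.06 was 1.55 in HI-10 and 2.15 or more in the other HI females of the few-malformed set, and that of 1RT39D23_B_B12 was 0.52 in PM-8 and 0.82 or more in the other PM females of that set.

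The many-minus-few difference of tcbk0012.k.08 was 1.25 higher in PM than in HI eggs on the log2 scale. Every many-malformed HI female lay below, and every many-malformed PM female above, the few-malformed females of its ovulation group, and the difference did not pass after adjustment (limma, adjusted p = 0.0654).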

How the results depend on the processing

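The count of clones called was 0 in every fit of HI and PM females together and of HI females alone. Leaving out 1 array gave 0 to 21 called clones within PM (21 without PM-7, 5 without PM-9) and 0 to 12 for the difference between PM and HI (12 without PM-7, 1 without PM-9, 1 without HI-8), and the interquartile range as a covariate gave 1 for that difference. Leave-one-out differences ran from -22.6 to -12.05 points for eyed embryos, from -38.0 to -27.2 for survivors at YSR and from 12.8 to 19.98 for the loss between them. The call for eyed embryos was lost without HI-2 or PM-7. Without HI-4, PM-13 and PM-14, chosen after seeing the data, the correlation of the HI and PM differences was -0.13. The sign turned in 35 fits of single clones, none of them called, and the cause was not tested. With HI-5 and PM-8 alone as the few-malformed set, TGFBR2 was at 0.080, GMCL1 at -0.045, PHB2 at -0.14 and VWF at 0.13. With eyed embryos as a covariate GMCL1 was at -0.061 and PHB2 at -0.030. BMP7 was at -0.016 with the interquartile range as a covariate, -0.0011 with no ovulation covariate, -0.035 without HI-5 and PM-8, -0.020 per 10 points of malformed alevins over 15 and -0.015 over 19 females, -0.0082 without HI-4, PM-13 and PM-14, and -0.041 to 0.061 in the leave-one-out fits. RL10 was at -0.013 with equal median absolute deviations, -0.12 with the interquartile range, -0.0057 with array weights, -0.021 without HI-5 and PM-8, -0.016 in the fit of all 28 arrays, and -0.055 to 0.075 in the leave-one-out fits. HSPA9B ran from -0.17 to 0.0029 and PDGFRA from -0.017 to 0.065 in those fits. The other clones of the text kept their direction. No paired analysis was possible because the compared sets share only the number 9, and the numbers rank females by egg quality and pair no samples. The number of arrays, 3 HI and 2 PM many-malformed females, limits what could be called.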
